A study of Mus musculus with 15 samples.

Results

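The genes described here encode the subunits of the mitochondrial respiratory chain and of ATP synthase. They were taken by name from a mouse whole-genome expression array: every probe that is not a control and whose gene name begins with Nduf, Uqcr, Atp5, Cox4, Cox5, Cox6, Cox7 or Cox8, or is Sdha, Sdhb, Sdhc or Sdhd. These were 113 of 41174 probes, and they stand for 82 genes of 27752 features in all, a feature being 1 gene or 1 probe that carries no gene name. Complex I had 35 genes (50 probes), complex II 4 genes (6 probes), complex III 7 genes (10 probes), complex IV 17 genes (19 probes) and complex V, the ATP synthase, 15 genes (22 probes). A further 4 genes (6 probes) have such a name but are not subunits: Ndufaf1 is an assembly factor of complex I, Cox7a2l joins complexes into supercomplexes, Atp5s is a coupling factor, and Cox4nb, now called Emc8, belongs to a complex of the endoplasmic reticulum. Ndufa4 was named for complex I and is counted here with complex IV, where it is now placed.

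Electrons from NADH enter the chain at complex I and electrons from succinate at complex II, which is also an enzyme of the tricarboxylic acid cycle. They pass through ubiquinone to complex III and on through cytochrome c to complex IV, which reduces oxygen. Complexes I, III and IV pump protons, and complex V uses the gradient to make ATP. Mature colonocytes are known to draw much of their energy from the oxidation of butyrate in mitochondria.

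All 4 groups came from male mice that carry the Min allele of Apc in the heterozygous state (Apc+/Min-FCCC), aged 6 to 8 weeks at colonoscopy, so that no group had wild-type Apc. The labels give the background as C57BL/6J for 3 groups and give none for epithelium of tumor-bearing mice. Adenomas came from mice with tumors seen by colonoscopy: 3 arrays are of adenomas of mice on plain chow and 4 of adenomas of mice given 300 ppm sulindac, an anti-inflammatory drug, with 100 ppm atorvastatin, a statin. Normal-looking colon epithelium came from tumor-free mice given 100 ppm atorvastatin (4 arrays) and from tumor-bearing mice (4 arrays). The titles of the latter name atorvastatin too, although the design text assigns that diet alone to tumor-free mice only. Chow was given for 7 days, RNA of laser-microdissected cells was amplified linearly, and each RNA was hybridised alone to a 1-colour array. Going by the titles, no epithelium analysed here came from untreated mice and no adenoma from mice on atorvastatin alone, and tissue and drug then cannot be told apart between adenoma and epithelium.

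Some arrays were nearly identical, although the labels call the arrays of a group biological replicates. The spread between arrays was a robust SD of their log2 difference, from the median absolute deviation. It was taken over probes well above background on all 15 arrays. Spot noise came from the scanner software's median coefficient of variation over non-control spots. In 6 pairs within groups the spread was 0.07 to 0.14, under the spot noise of 0.19 to 0.22. The other 15 pairs within groups differed by 0.57 to 1.08. Such arrays were averaged and counted as 1 sample, which left 10 samples from 15 arrays: 2 of untreated adenoma (arrays 1 and 2 together, and 3), 2 of treated adenoma (1, and 2 to 4 together), 3 of tumor-free epithelium (1, 2, and 3 with 4) and 3 of tumor-bearing epithelium (1 with 3, 2, and 4). Array 2 of tumor-free epithelium and array 2 of tumor-bearing epithelium were equally alike (robust SD 0.14 against a spot noise of 0.18) although their labels differ. They were kept under their labels, and results are given without them too. No label ties arrays to animals or says whether mice were pooled, so the p-values measure only the spread between these samples. All 7 epithelial markers checked (Epcam, Cdh1, Krt8, Krt18, Krt19, Vil1 and Cdx2) were well above background on each of the 15 arrays.

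Levels below are log2 of the processed signal with the 75th percentile of each array set to 0, and levels of different probes are not set against each other. Of the 82 genes, 77 were well above background on all 15 arrays and none of their spots was saturated. The others were Atp5s and Cox6a2 (14 arrays each), Cox8b (8 arrays), Cox4i2 (6 arrays) and Cox8c (3 arrays). Cox4i2 and Cox8c were not tested in the comparison of adenoma with epithelium, which leaves 80 genes.

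Promoter windows are shown here because 78 of the 80 tested genes lay lower in adenoma together. RefSeq windows of 300 bases around the transcription start (build GRCm38.p6) were found by symbol or synonym for 67 of the 82 genes, 72 windows in all. On both strands, the NRF-1 motif GCGCATGCG was in 8 of these windows (11.1%) against 1.75% of all 32851 windows, the ETS motif CCGGAAG in 17 (23.6% against 8.86%), the YY1 motif AAGATGGCG in 7 (9.72% against 1.4%) and the ERR motif TCAAGGTCA in 2 (2.78% against 0.423%). The NRF-1 motif overlaps its own reverse complement, and a match says only that the letters are there. Of the 18 genes called lower in adenoma, 16 had a window and 7 of these held a motif. Of all member windows 28 of 72 (38.9%) held at least 1 of the 4 motifs, against 11.7% of all windows. The member windows include those of the called genes. Members are counted here by window and called genes by gene, so their shares were not set against each other. Ndufs7, at chr10:80249199-80249498 on the plus strand, held the YY1 motif. Atp5k, at chr5:108434350-108434649 on the minus strand, held the NRF-1 and ETS motifs. Cox7a1, at chr7:30183921-30184220 on the plus strand, held none of the 4 motifs. Each window is printed 5′ to 3′ in the direction of the gene, with motifs in capitals.
Ndufs7: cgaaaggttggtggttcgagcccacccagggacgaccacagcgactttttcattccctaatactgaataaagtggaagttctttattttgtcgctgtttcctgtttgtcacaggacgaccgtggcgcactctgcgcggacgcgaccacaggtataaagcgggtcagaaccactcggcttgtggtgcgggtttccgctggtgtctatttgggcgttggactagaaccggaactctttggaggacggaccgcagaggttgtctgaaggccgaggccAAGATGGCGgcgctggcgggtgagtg
Atp5k: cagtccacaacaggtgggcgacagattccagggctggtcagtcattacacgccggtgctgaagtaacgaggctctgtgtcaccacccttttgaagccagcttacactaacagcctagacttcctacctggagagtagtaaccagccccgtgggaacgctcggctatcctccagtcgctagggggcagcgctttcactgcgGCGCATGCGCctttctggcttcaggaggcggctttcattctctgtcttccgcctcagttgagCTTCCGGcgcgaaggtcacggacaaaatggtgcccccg
Cox7a1: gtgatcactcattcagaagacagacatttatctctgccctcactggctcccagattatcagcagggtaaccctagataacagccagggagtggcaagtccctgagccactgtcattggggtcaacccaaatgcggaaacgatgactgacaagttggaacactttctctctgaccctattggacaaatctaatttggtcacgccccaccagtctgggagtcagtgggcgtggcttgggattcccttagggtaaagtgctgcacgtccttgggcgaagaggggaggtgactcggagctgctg

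In adenoma, the respiratory chain genes lay lower almost throughout. The mean of the 2 adenoma groups was below the mean of the 2 epithelium groups for 78 of 80 genes, with a median log2 difference of -0.78 (4 samples against 6), while 10705 of 18914 features tested were below 0 with a median of -0.17. limma called 18 of the 80 genes lower at an adjusted p under 0.05 (22.5%) and 0 higher. Over all features 21.8% were called, 12.6% as lower and 9.14% as higher. Without Cox8b, which passed the filter on dim probes through the epithelium alone, 17 of 79 genes were called lower (21.5%). The 2 genes at or above 0 were Ndufa4 (0.06) and Cox4nb (0.33), and neither was called.

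For 25 of 80 genes (31.2%) every adenoma sample lay below every epithelium sample, against 10.3% of all features, and for none did every adenoma sample lie above, against 7.17% of all features. Complex V had 7 such genes of 15, complex I 12 of 35, complex IV 4 of 15, complex II 1 of 4 and complex III 1 of 7. Relative to the mean of each gene's 4 group means, the median subunit stood at -0.43 and -0.41 in untreated adenoma and at -0.39 and -0.31 in treated adenoma. It stood at 0.34, 0.59 and 0.12 in tumor-free epithelium and at 0.91, 0.55 and -0.02 in tumor-bearing epithelium. The third sample of tumor-bearing epithelium was thus the epithelium sample closest to the adenomas.

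**Figure D1:**
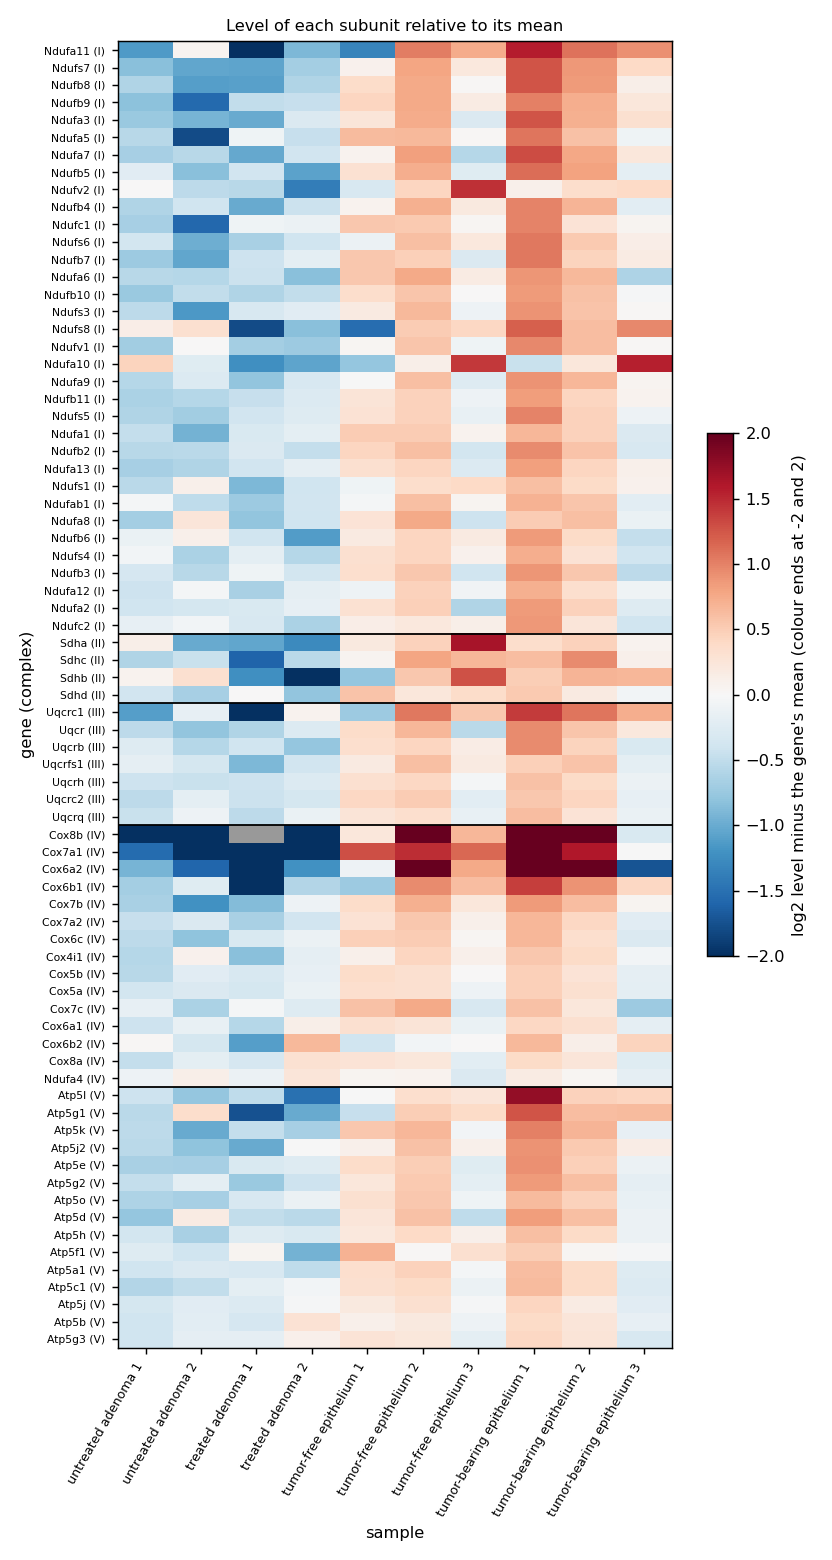
Level of each of 75 subunits in each of 10 samples (columns), as log2 level minus the gene's mean over the samples, grouped by complex and ordered by the adenoma difference; blue is below and red above the mean, and grey marks a flagged spot. The 4 adenoma columns are mostly blue, and Ndufa4 is close to white in every column.

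The calls rested on few samples. Without the near-identical pair across the epithelium groups, limma called 3 genes lower, Cox7a1, Cox8b and Ndufs7, with a median over the 80 genes of -0.71. That is 3.75% of the genes, under the 6.82% of all features called lower in the same setting. Without array 4 of tumor-bearing epithelium it called 42 genes lower (52.5%, against 21.2% of all features). Without some other arrays the count fell, and there the share of all features called lower fell as well. It was 4 genes without array 3 of untreated adenoma (5% against 7.63% of all features) and 5 without array 1 of treated adenoma (6.25% against 7.49%). It was 5 without array 2 of tumor-free epithelium (6.25% against 8.72%), 6 without array 2 of tumor-bearing epithelium (7.5% against 9.16%) and 7 without arrays 1 and 3 of that group (8.75% against 9.66%). In these settings the share of members called was below that of all features. It was above with 7 genes without arrays 1 and 2 of untreated adenoma (8.75% against 7.17%) and with 11 without arrays 2 to 4 of treated adenoma (13.9% against 8.68%). Where this left a group with 1 sample, that sample was taken to vary like the others. Without any other single array the count was 16 to 18 (20% to 22.5%, against 10.6% to 13% of all features).

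Markers of several other cell types moved with the same comparison, and those of others did not. Of 9 absorptive colonocyte markers, 8 were called lower (median of the fitted differences -7.64, with several adenoma signals near background), and their summed level, on a scale where the 75th percentile of an array is 1, was 6.5 to 51.5 in untreated adenoma, 6.21 to 15.5 in treated adenoma, 293 to 380 in tumor-free epithelium and 117 to 375 in tumor-bearing epithelium. Among them Car4, a carbonic anhydrase, was well above background on 3 of 3 untreated and 0 of 4 treated adenoma arrays. All 6 enteroendocrine markers tested were called lower (median -5.22), as were 5 of 8 goblet cell markers (median -1.59) and 3 of 7 general epithelial markers (median -0.30). The goblet cell markers' summed level was 272 to 296 in untreated and 102 to 150 in treated adenoma. It was 444 to 590 in tumor-free and 533 to 685 in tumor-bearing epithelium. For enteroendocrine markers it was 2.87 to 7.88 in untreated and 46.4 to 68.4 in treated adenoma. Their epithelium sums were 114 to 159 in tumor-free and 114 to 213 in tumor-bearing mice. All 5 neutrophil markers were called higher, but only 1 of the 5 passed the filter on dim probes between the epithelia. The others entered the test through the adenomas alone, where they are high. In epithelium Cxcr2 was well above background on 0 of 8 arrays, S100a8 on 1, S100a9 and Mmp9 on 4 each and Csf3r on 8, so that the median of the fitted differences, 5.02, rests partly on signals near background. The neutrophil markers' summed level was 20.5 to 23.4 in untreated and 16.4 to 47.7 in treated adenoma against 0.109 to 0.26 in tumor-free and 0.0932 to 0.287 in tumor-bearing epithelium. Of 4 B and plasma cell markers tested, 3 were called lower (median -3.85), with a summed level of 0.491 to 1.0 in untreated and 0.231 to 0.27 in treated adenoma against 19.8 to 28.3 in tumor-free and 20.8 to 39.8 in tumor-bearing epithelium. Both red blood cell markers tested were called lower (median -3.22). Of 5 mast cell markers 2 were called higher and 1 lower, but only 3 passed the filter on dim probes between the epithelia. The others entered the test through the adenomas alone. Against tumor-bearing epithelium, 2 of 5 were called higher in untreated adenoma, and 0 of 3 higher and 1 lower in treated adenoma. The mast cell markers' summed level was 2.70 to 3.49 in untreated and 0.311 to 0.653 in treated adenoma. It was 1.24 to 2.82 in tumor-free and 1.31 to 2.08 in tumor-bearing epithelium. Of 6 fibroblast, 6 macrophage and 5 T cell markers, 0 were called (medians -0.20, -0.05 and -0.56). Of 5 endothelial markers, 1 was called higher and 0 lower (median 0.83). The part of these cells in the lower respiratory chain levels was not tested, and in such bulk RNA fewer cells of a type and less RNA per cell cannot be told apart.

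Split by complex, the median log2 difference was -0.87 for complex I, -1.26 for complex II, -0.76 for complex III, -0.62 for complex IV and -0.68 for complex V. Genes called lower numbered 9 of 35, 2 of 4, 0 of 7, 4 of 15 and 3 of 15 in that order. These shares were 25.7%, 50%, 0%, 26.7% and 20%, against 12.6% of all features called lower. All tested subunits of complexes I, II, III and V lay below 0. At an unadjusted p under 0.05, 24 of 35, 4 of 4, 5 of 7, 7 of 15 and 8 of 15 genes were lower and none higher, against 36.7% of all features, 21.8% as lower. The 4 associated genes had a median of -0.35, and 0 were called by limma (1 at an unadjusted p under 0.05). Complexes were not tested against each other, since their genes share the same 10 samples.

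**Figure D2:**
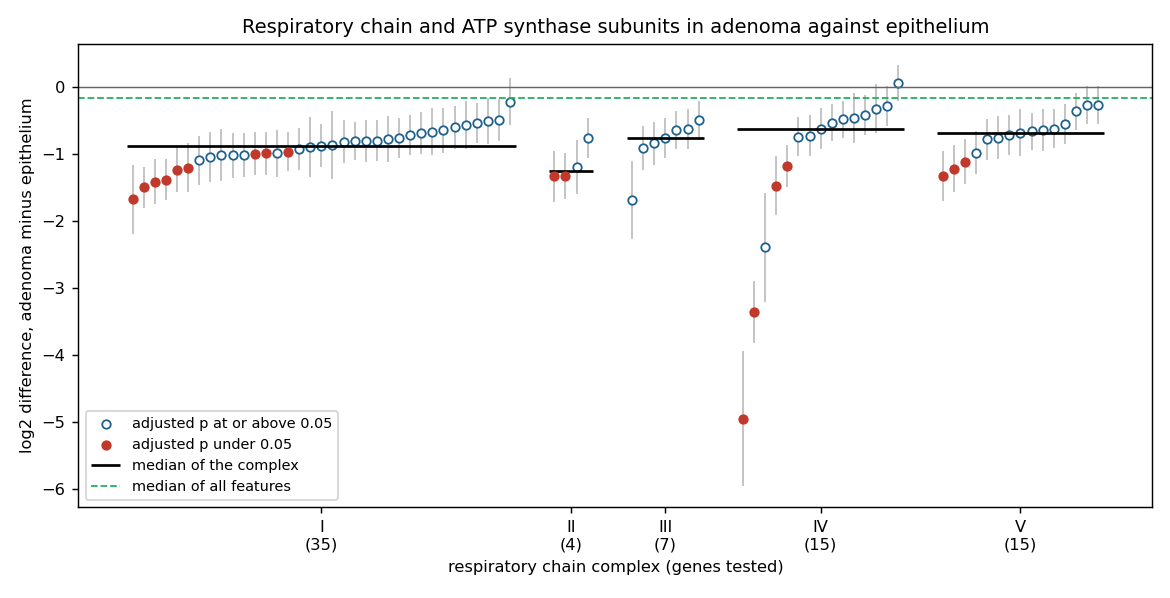
Log2 difference of adenoma minus epithelium (vertical axis) for each tested subunit, by complex, with bars of 1 SE; filled points have a limma adjusted p under 0.05, black lines are complex medians and the dashed line is the median of all features at -0.17. Nearly every point lies below 0, and the 2 lowest are Cox8b and Cox7a1 of complex IV.

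Complex I, the NADH dehydrogenase, had its clearest difference in Ndufs7, the core subunit that carries the last iron-sulfur cluster before ubiquinone. Its level was 4.29 and 4.09 in untreated adenoma and 4.07 and 4.44 in treated adenoma. It was 5.20, 5.91 and 5.34 in tumor-free epithelium and 6.38, 5.99 and 5.53 in tumor-bearing epithelium. Every adenoma sample thus lay below every epithelium sample, with a log2 difference of -1.50 (SE 0.30, 2.83-fold lower, adjusted p = 0.00679 by limma). Ndufs7 was called lower in all 33 alternative settings.

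The other called genes of complex I are accessory subunits, most of them of the membrane arm. Ndufb8 ranged from 4.31 to 4.82 in adenoma and from 5.43 to 6.68 in epithelium (log2 difference -1.41, SE 0.33). Ndufb9 ranged from 4.36 to 5.45 in adenoma and from 6.07 to 6.92 in epithelium (-1.38, SE 0.31). Neither overlapped between the tissues, and the same held for Ndufb10 (5.12 to 5.37 against 5.83 to 6.71, difference -0.97), Ndufs6 (4.52 to 5.13 against 5.37 to 6.55, difference -1.0) and Ndufa3 (4.31 to 5.02 against 5.03 to 6.56, difference -1.24). Ndufa5 (-1.20), Ndufb7 (-0.99) and Ndufa11 (-1.68) were called as well, but at least 1 epithelium sample of each lay within the adenoma range. For Ndufa11 that was sample 1 of tumor-free epithelium, at -0.65, while the other 5 epithelium samples lay between 1.41 and 2.24 and the adenomas between -1.39 and 0.72. Among the 7 core subunits on the list, all lay below 0 and 1 was called.

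Ndufa3 was the only member whose tested probes differed in sign, out of 21 genes with several tested probes. The probe at 7:3242389-3242448 gave -1.24 and the probe at 7:3240804-3240863 gave 0.07 (SE 0.41), positions on chromosome 7 being those of the array's annotation (build mm7, plus strand). The sequences are shown because the call for this gene depends on which one is read. Capitals mark the longest run of bases that the 2 probes share, 6 bases.
Ndufa3 probe at 3242389: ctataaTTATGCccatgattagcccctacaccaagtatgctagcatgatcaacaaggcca
Ndufa3 probe at 3240804: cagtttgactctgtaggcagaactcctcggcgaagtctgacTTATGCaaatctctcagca

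Over all 106 member probes tested, 103 were below 0, and with each probe as a feature of its own 14 were called lower (13.2%) and 0 higher, against 9.64% of all probes called lower and 17.3% called in all.

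Complex II, the succinate dehydrogenase, had 2 of its 4 genes called lower in adenoma, Sdha and Sdhc. Sdha, the flavoprotein that oxidises succinate, was at 1.62 and 0.51 in untreated adenoma and at 0.46 and 0.23 in treated adenoma, against 1.71, 1.97 and 3.16 in tumor-free and 1.86, 1.98 and 1.58 in tumor-bearing epithelium. Only the first sample of untreated adenoma reached the epithelium range (log2 difference -1.34, SE 0.38, adjusted p = 0.0321 by limma). Sdhc, a membrane anchor, was at 3.32 and 3.47 in untreated and at 2.31 and 3.38 in treated adenoma. Its epithelium levels were 3.97, 4.70 and 4.59 in tumor-free and 4.53, 4.87 and 4.02 in tumor-bearing mice, all above the adenomas (-1.33, SE 0.34, adjusted p = 0.0207 by limma). Sdhb, the iron-sulfur subunit, was at 3.08 and 3.33 in untreated but 1.79 and 0.99 in treated adenoma, and at 2.24, 3.56 and 4.28 in tumor-free and 3.50, 3.69 and 3.69 in tumor-bearing epithelium. The untreated adenomas lay inside the epithelium range and the treated ones below it, and over all adenomas Sdhb was not called (-1.20, adjusted p = 0.0631 by limma). Sdhd, the other anchor, was not called either (-0.76, adjusted p = 0.0918 by limma).

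In complex III, Uqcrc1, a core protein, had the lowest difference (-1.69, SE 0.58) without being called (adjusted p = 0.0643 by limma). Its adenoma levels were spread from 2.49 to 5.42 and overlapped the epithelium range of 4.62 to 6.75. Its second probe gave -1.92. Uqcrq, a small accessory subunit, had the smallest difference of the complex (-0.50), and Uqcrfs1, the Rieske iron-sulfur protein, had -0.76. Among the genes of complex III, Uqcrh was the 1 gene that had every adenoma sample below every epithelium sample.

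Complex IV, cytochrome c oxidase, held the 2 largest differences, both in isoforms known from muscle. Cox7a1, the heart and skeletal muscle form of subunit VIIa, was at 2.01 and 1.39 in untreated and at 1.47 and 1.25 in treated adenoma. It was at 4.84, 5.02 and 4.69 in tumor-free epithelium and at 6.09, 5.15 and 3.54 in tumor-bearing epithelium. The groups did not overlap, with a log2 difference of -3.36 (SE 0.46, 10.3-fold lower, adjusted p = 0.000769 by limma), and Cox7a1 was called lower in all 33 alternative settings. Its ubiquitous counterpart Cox7a2 was at 5.64 and 5.81 in untreated and 5.44 and 5.71 in treated adenoma. In tumor-free epithelium it was at 6.39, 6.63 and 6.19 and in tumor-bearing epithelium at 6.76, 6.51 and 5.87. These also did not overlap, but the difference was smaller and not called (-0.74, SE 0.29, adjusted p = 0.0966 by limma).

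Cox8b, the muscle and brown fat form of subunit VIII, was well above background on 8 of 8 epithelium arrays and on 0 of 7 adenoma arrays. Its epithelium levels were -4.19, -0.77 and -3.77 in tumor-free and -2.32, -0.71 and -4.72 in tumor-bearing mice. Against the detection limit of the adenoma arrays it was at least 13.2-fold lower in adenoma (adjusted p = 0.00856 by limma, and 0.0102 with no filter on dim probes), a bound that takes the higher of each adenoma array's lowest signal well above background and the probe's own signal. The spot was flagged in the first sample of treated adenoma, which the fit therefore left out for this gene. The ubiquitous Cox8a was not called (-0.29, SE 0.30, adjusted p = 0.508 by limma), and its adenoma levels of 5.90 to 6.69 overlapped the epithelium levels of 6.14 to 6.75. Cox6a2, the muscle form of subunit VIa, was at -4.68 and -5.33 in untreated and -5.77 and -4.95 in treated adenoma. In tumor-free epithelium it was at -3.84, -1.54 and -2.98 and in tumor-bearing epithelium at -1.62, -1.26 and -5.48, the last of these within the adenoma range (-2.40, SE 0.81, adjusted p = 0.0605 by limma). Its counterpart Cox6a1 had -0.42, and Cox4i1, the ubiquitous form of subunit IV, had -0.62. The lung form Cox4i2 and the testis form Cox8c were dim in all groups, and the testis form Cox6b2 was not called (-0.32).

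Probes of the isoform pairs are distinct in sequence: the probes of Cox7a1 and Cox7a2 share no run longer than 6 of 60 bases, and those of Cox8b and Cox8a none longer than 5. The Cox7a1 probe is printed because Cox7a1 had the smallest adjusted p of all members. Its capitals mark the 6 bases shared with the Cox7a2 probe, and the array's annotation gives it no position.
Cox7a1 probe: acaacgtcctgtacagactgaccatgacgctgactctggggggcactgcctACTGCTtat

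**Figure D3:**
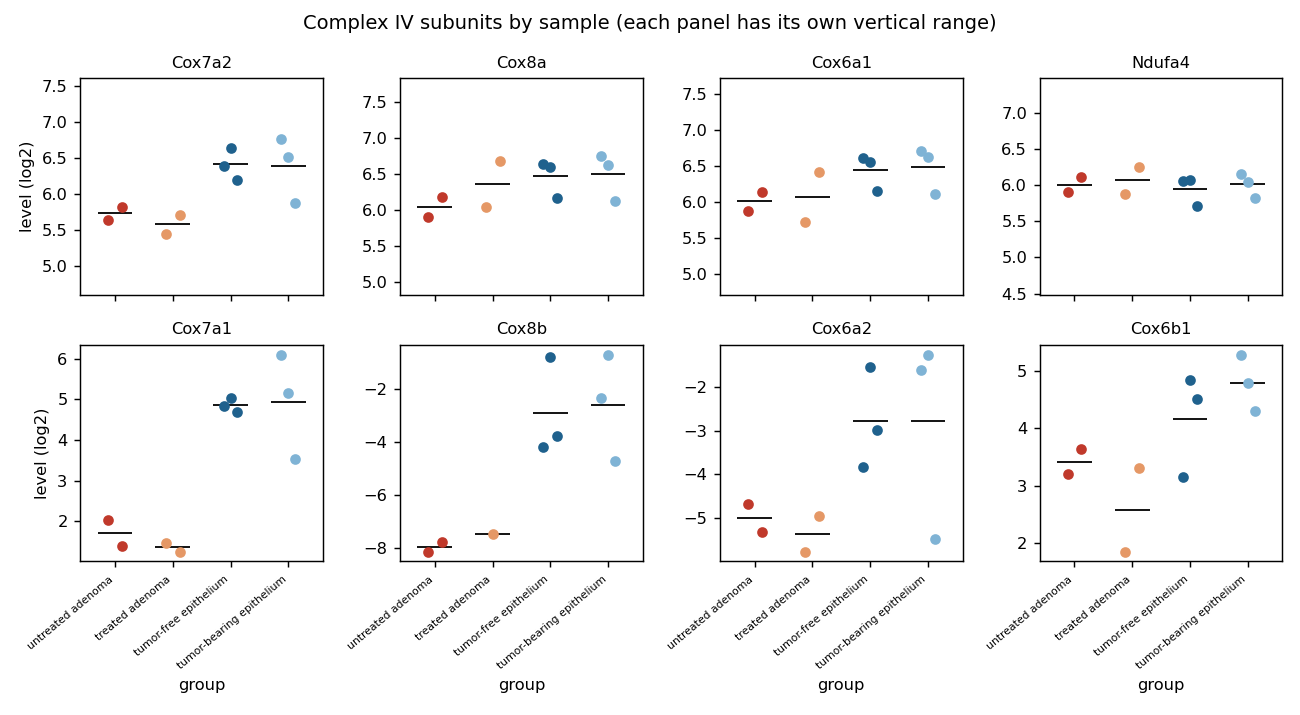
Level (log2, with the 75th percentile of each array at 0) of 8 complex IV subunits in each sample, by group, with the group mean as a line. The ubiquitous Cox7a2, Cox8a and Cox6a1 (top row) stand over their muscle forms Cox7a1, Cox8b and Cox6a2. In the last column Ndufa4 stands over Cox6b1, which are not forms of the same subunit. Each panel has a range of its own. Cox7a1 lies between 1.25 and 2.01 in adenoma and between 3.54 and 6.09 in epithelium, while Ndufa4 lies between 5.71 and 6.26 in all groups.

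Muscle markers were examined beside these isoforms. Of 7 smooth muscle markers, 4 were called lower in adenoma (Acta2, Cnn1, Myh11 and Tagln; median over the list -1.19). Their summed level was 12.3 and 15.5 in untreated and 23.2 and 29.2 in treated adenoma against 28.1 to 54.9 in tumor-free and 43.7 to 57.2 in tumor-bearing epithelium. Of 7 skeletal and heart muscle markers, 5 were tested and 0 called by limma (median -0.40), with a summed level of 1.05 to 1.83 in untreated adenoma, 0.805 to 0.81 in treated adenoma, 0.466 to 1.58 in tumor-free epithelium and 0.966 to 1.73 in tumor-bearing epithelium. Ckm, the muscle creatine kinase, was well above background on 0 of 7 adenoma arrays, 2 of 4 tumor-free and 1 of 4 tumor-bearing epithelium arrays. The part of muscle RNA in the levels of Cox7a1, Cox8b and Cox6a2 was not tested.

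The remaining called genes of complex IV are ubiquitous subunits. Cox6b1, which faces the intermembrane space, was at 3.20 and 3.64 in untreated and 1.86 and 3.31 in treated adenoma (log2 difference -1.47, SE 0.44, adjusted p = 0.0403 by limma). Its epithelium levels were 3.16, 4.84 and 4.50 in tumor-free and 5.27, 4.79 and 4.30 in tumor-bearing mice, so that only the first tumor-free sample lay within the adenoma range. Cox7b ranged from 4.14 to 5.25 in adenoma and from 5.40 to 6.20 in epithelium (-1.18, SE 0.32, adjusted p = 0.0260 by limma). Ndufa4 was the flattest member of the complex: 5.90, 6.12, 5.88 and 6.26 in the adenoma samples, 6.07, 6.07 and 5.71 in tumor-free epithelium and 6.16, 6.05 and 5.83 in tumor-bearing epithelium.

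In complex V, the called genes belong to the membrane part. Atp5l, subunit g, was at 2.59 and 2.23 in untreated and 2.50 and 1.52 in treated adenoma, against 2.99, 3.34 and 3.25 in tumor-free and 4.77, 3.47 and 3.43 in tumor-bearing epithelium, with no overlap (log2 difference -1.33, SE 0.37, adjusted p = 0.0296 by limma). Atp5k, subunit e, ranged from 4.61 to 5.14 in adenoma and from 5.46 to 6.63 in epithelium (-1.12, SE 0.33). Atp5g1, Atp5g2 and Atp5g3 all encode the same mature subunit c of the rotor ring. Atp5g1 was called (-1.22, SE 0.35, adjusted p = 0.0351 by limma), while Atp5g2 (-0.76) and Atp5g3 (-0.27, the smallest difference of the complex) were not, and their differences were not tested against each other. Of the 5 genes of the catalytic F1 head, 0 were called by limma, and their median was -0.62. Atp5b, the catalytic beta subunit, had -0.27 (SE 0.28, adjusted p = 0.505 by limma), with levels of 5.90 to 6.60 in adenoma and 6.14 to 6.69 in epithelium.

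**Figure D4:**
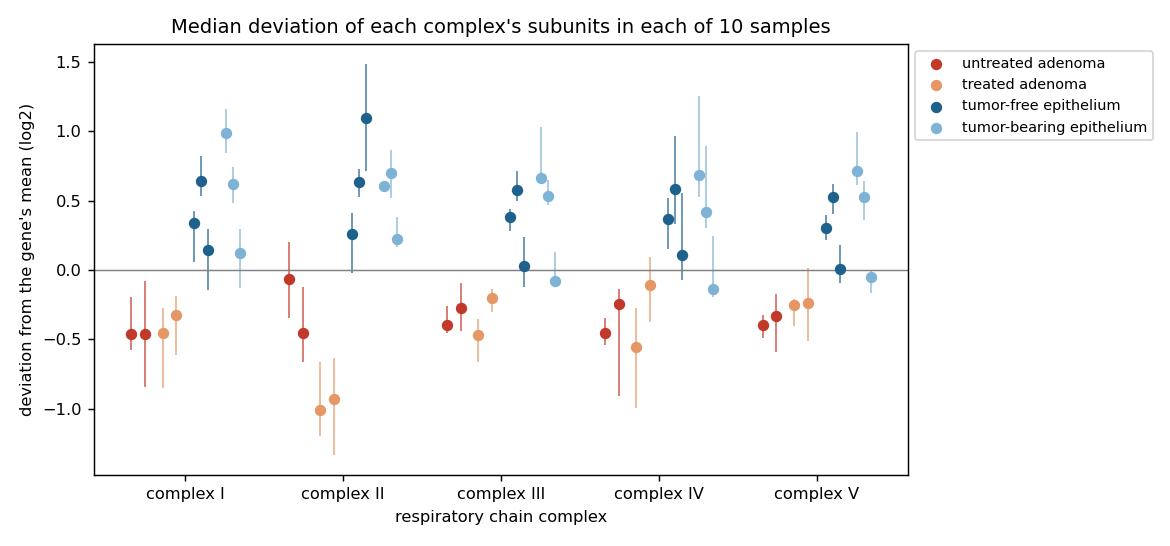
Median deviation of each complex's subunits from their gene means (vertical axis, log2) in each of 10 samples, with bars from the lower to the upper quartile over the subunits. In complex II the treated adenomas are lowest (-1.01 and -0.93). In complexes III, IV and V the third sample of either epithelium is close to 0. The values are 0.03, 0.11 and 0.01 in tumor-free and -0.08, -0.14 and -0.05 in tumor-bearing epithelium.

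Untreated and treated adenoma were each set against epithelium of tumor-bearing mice. Both comparisons use the same 3 epithelium samples, so their values are given side by side and their likeness is not a result. In untreated adenoma, 78 of 80 genes lay below 0 (median -0.78, all features -0.13), and limma called 4 lower and 0 higher, 5% of the genes, against 12% of all features called, 6.65% as lower and 5.31% as higher. The called share was therefore no larger than the background, although the median was lower. Without Cox8b it was 3 of 79 genes (3.8%). The 4 genes were Cox8b (at least 16.9-fold lower), Cox7a1 (-3.22), Ndufb9 (-1.84) and Ndufs7 (-1.77). In treated adenoma, 78 of 80 genes lay below 0 (median -0.88, all features -0.08), and limma called 10 lower and 0 higher, 12.5% of the genes, against 13.6% of all features, 7.04% as lower and 6.6% as higher. The 10 were Cox7a1 (-3.57), Ndufa11 (-2.66), Sdhb (-2.24), Ndufs8 (-2.23), Atp5g1 (-2.21), Cox6b1 (-2.21), Atp5l (-1.88), Ndufs7 (-1.71), Sdhc (-1.63) and Ndufb8 (-1.59). Cox8b, measured in 1 treated sample, was at least 13.0-fold lower without being called (adjusted p = 0.0734 by limma).

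By complex, the median in untreated adenoma was -0.99 for complex I, -0.74 for II, -0.71 for III, -0.58 for IV and -0.79 for V. In treated adenoma the medians were -1.0, -1.54, -0.93, -0.63 and -0.65 in the same order. Complex II thus had the lowest median in treated adenoma and complex I in untreated adenoma.

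**Figure D5:**
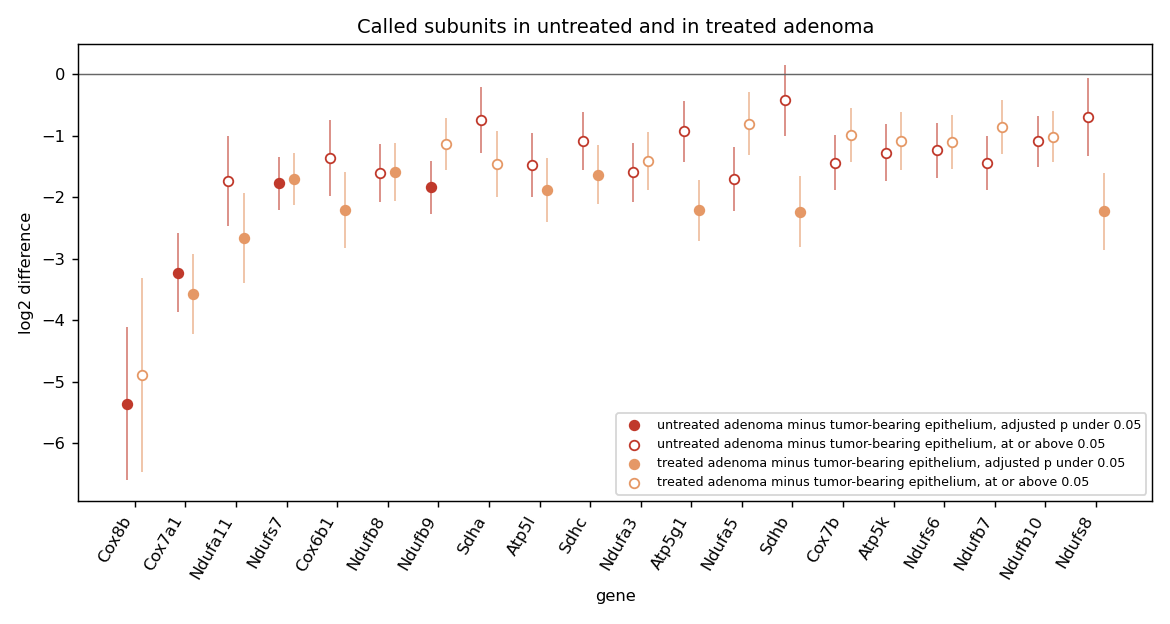
Log2 difference from tumor-bearing epithelium (vertical axis, bars of 1 SE) in untreated adenoma (red) and treated adenoma (orange) for the 20 subunits called in at least 1 comparison; filled points have a limma adjusted p under 0.05. Sdhb and Ndufs8 lie lower in treated than in untreated adenoma, and Ndufb9 and Ndufa5 lie higher.

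These counts moved with single samples too. Without the near-identical pair they were 2 and 3 for untreated and treated adenoma (2.5% and 3.75%, against 3.4% and 4.36% of all features called lower). For untreated adenoma limma called 20 without array 4 of tumor-bearing epithelium (25%, against 14.9% of all features called lower). It called 1 without array 2 or without arrays 1 and 3 of that group (1.25%, against 3.89% and 3.82%), and 0 without array 3 or without arrays 1 and 2 of untreated adenoma (against 1.79% and 2.58%). For treated adenoma it called 22 without array 4 of tumor-bearing epithelium (27.5% against 14%). It called 2 without array 2 and 1 without arrays 1 and 3 of that group (2.5% against 4.63% and 1.25% against 4.85%), and 1 without array 1 and 2 without arrays 2 to 4 of treated adenoma (1.25% against 2.41% and 2.53% against 3.43%). It called 5 without array 3 or without arrays 1 and 2 of untreated adenoma (6.25% against 6.12%) and 6 without arrays 3 and 4 of tumor-free epithelium (7.5% against 6.42%). Within scan dates, the median over the members in untreated adenoma was -1.05 on the first date (77 of 80 below 0, all features -0.27) and -1.20 on the second (76 of 79 below 0, all features -0.32). In treated adenoma it was -1.27 on the second date (79 of 79 below 0, all features -0.29) and -0.31 on the fourth (64 of 80 below 0, all features 0.12), which holds array 4 of tumor-bearing epithelium. Each of these values rests on 1 or 2 arrays a group and has no test. For untreated adenoma the first date holds its array 1 with tumor-bearing arrays 1 and 2, and the second its array 2 with tumor-bearing array 3. Untreated arrays 1 and 2 were averaged as 1 sample, and so were tumor-bearing arrays 1 and 3. Those 2 dates are thus largely repeats of the same samples, not separate comparisons.

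The drug comparison, treated against untreated adenoma, is the direct test of how these arms differ, with 2 samples against 2. limma called 0 of 79 members, and 3 had an unadjusted p under 0.05, all lower. Over all features, 0.221% were called (0.119% higher, 0.102% lower), and 12% had an unadjusted p under 0.05. The members were balanced around 0, with 40 of 79 below it and a median of -0.03. Among the 3 with an unadjusted p under 0.05 were Sdhb (-1.82, SE 0.63, adjusted p = 0.310) and Atp5g1 (-1.29, SE 0.54, adjusted p = 0.393), and the highest difference was that of Ndufc1 (1.02, SE 0.50, adjusted p = 0.463), all by limma. Complex II had the lowest median (-0.63), and the others lay between -0.06 and 0.16. Within scan dates the median over members was -0.04 on the second date and 0.16 on the fifth, and that of complex II was -1.05 and -0.20.

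The epithelium of tumor-bearing and tumor-free mice, both with atorvastatin in their titles, did not differ detectably in these genes. limma called 0 of 80 members and 0 of 17649 features (0% in each direction), and 0 members had an unadjusted p under 0.05 against 2.84% of all features. The median over members was 0.13, with 15 of 80 below 0, and all features had a median of 0.01. The largest differences were those of Ndufs8 (1.13, SE 0.56), a core subunit of complex I, and Ndufa11 (1.04, SE 0.65). The tumor-free samples were scanned on dates of their own, so that scan date and group cannot be told apart here, and 1 sample of each group belongs to the near-identical pair.

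Genes that work beside the chain were read from lists, beside 56.6% of all features below 0 and 12.6% called lower in adenoma against epithelium. Of 25 assembly factors, 22 lay below 0 (88%, median -0.48), and the 3 called lower (12%) were no larger a share than among all features: Lyrm7 (-1.78), which matures the Rieske protein, and Surf1 (-1.47) and Sco1 (-0.91), which serve the assembly of complex IV. All 12 tested genes of electron carriers and ubiquinone synthesis lay below 0 (median -0.72), and 4 (33.3%), Etfb (-1.30), Coq9 (-1.30), Pdss1 (-1.21) and Cyc1 (-0.89), the cytochrome of complex III, whose name lies outside the rule, were called lower. Of 18 genes of the tricarboxylic acid cycle and of the entry of pyruvate into it, 16 lay below 0 (median -0.68). Of these, 5 were called lower (27.8%). Among them were Pcx (-3.41), which feeds the cycle from pyruvate, and the cycle genes Ogdh (-1.48), Suclg1 (-1.22) and Idh3g (-1.10). None of these lists had a gene called higher.

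Regulators of mitochondrial biogenesis were mixed in direction. Of 18, 11 lay below 0 (61.1%, median -0.18) and 3 were called lower (16.7%): Ppara (-3.16), a nuclear receptor of fatty acid oxidation, Ppargc1b (-2.55), a coactivator, and Polg2 (-1.50), of the mitochondrial DNA polymerase. The other coactivator, Ppargc1a, had -1.60 and Esrra, the receptor ERR alpha, had -1.36, and neither was called (limma adjusted p = 0.0913 and 0.0691). Nrf1 had 0.15, Gabpa, an ETS factor, 0.96, Yy1 -0.15 and Tfam, which packages mitochondrial DNA, 0.05, with no call. Of 19 carriers and channels of the mitochondrial membranes, 12 lay below 0 (63.2%, median -0.35) and 2 were called lower (10.5%), shares near those of all features. These were Slc25a20 (-2.23), the carnitine carrier, and Slc25a13 (-1.16), an aspartate and glutamate carrier. Treated against untreated adenoma, limma called 0 genes in each of these 5 lists, and likewise 0 between the 2 kinds of epithelium.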

How the data were processed

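Laser-microdissected mouse colon RNA was measured on 15 Agilent 4x44 arrays. The deposited files hold spot intensities from Feature Extraction 9.5.3 (gProcessedSignal, background-subtracted by the scanner software), per the file headers. The authors' deposited value table holds log2 values of the same arrays, whose centring and scale are not given in the sources used here, and it was used as an alternative. Its 4 columns for tumor-bearing epithelium matched that group's files best in reverse order, within the group. From the intensities, control spots and outlier-flagged spots were left out, spots of a probe were averaged, and log2 signal minus each array's 75th percentile was taken. For each gene the probe with the highest mean was used, and features well above background on every unflagged array of at least 1 group compared were tested. Near-identical arrays were averaged to 10 samples.

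A model over the 4 groups was fitted with limma 3.58.1 (lmFit, eBayes) in R 4.3.3, with 6 residual and 3.9 prior degrees of freedom, and Benjamini-Hochberg adjustment over all features at 0.05. The script was tested on simulated data. Probe names came from RefSeq accessions (22951), symbols (6659) or synonyms (3109), or from the array file alone (2011). The number of arrays limits precision. The members and lists were chosen with earlier results of these data known. Named with values were called members (where more than 12 were called in a comparison, the 6 highest and 6 lowest), the extremes of each complex, the complex IV isoform pairs, complex II, Atp5b, Ndufa4 and genes whose probes disagreed. Some genes that this rule covers are not reported here. Uqcrfs1, Uqcrh, Atp5g2, Ndufc1 and Cox4nb were chosen after their values were seen. Alternatives covered background, scaling, filter, probes, averaging, blocks, scan date, slide and left-out arrays. Replicate numbers were not used to pair the samples in the main fit. Of 21 same-numbered pairs of arrays, 9 had correlated deviations over 0.1 (r from -0.30 to 0.52). Pairs with different numbers were not set beside them, so whether the numbers pair samples was not tested.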

Additional observations from a re-analysis of the deposited data

How the results depend on the processing

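Counts of members called by limma depended on the settings, in the order adenoma against epithelium (18 called), untreated (4) and treated adenoma (10) against tumor-bearing epithelium. With each array as its own sample the counts were 67, 50 and 59, while all features called rose to 47.6%, 39.7% and 43.1%. With the replicate number as a block they were 66, 53 and 58 (all features called 49.4%, 42.9% and 43.6%). With slide as a random block they were 67, 53 and 56 (all features 47%, 41.5% and 40.1%). With scan date as a random block, chosen after seeing the data, they were 65, 55 and 59 (all features 46.9%, 43.2% and 43.7%). Scan date as a fixed block gave 53 and 32 for untreated and treated adenoma (all features 39.4% and 33.1%) and could not be fitted over all groups. These fits count near-identical arrays as separate samples, and 1 member was called higher in 4 of them (each array and slide in adenoma against epithelium, replicate block in untreated adenoma, scan date as a random block in treated against untreated adenoma). For treated against untreated adenoma (0 called) the same fits gave 2 (each array), 4 (replicate block), 2 (slide), 3 (scan date random) and 3 (scan date fixed). Members called lower were 2.53% (each array), 5.06% (replicate block), 2.53% (slide) and 3.8% (scan date fixed). In the same order 5.58%, 5.94%, 5% and 6.01% of all features were called lower, so the members were under that share. Between epithelia the fitted ones gave 0.

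Without the near-identical pair across groups the counts were 3, 2 and 3. For adenoma against epithelium, quantile normalization gave 9 (11.2%, against 11.9% of all features called lower). The percentile over probes well above background on all arrays gave 11 (13.8% against 10.5%), and no filter 11 (13.4% against 7.74%). For treated adenoma these settings gave 5 (6.25% against 7.06%), 5 (6.25% against 6.41%) and 4 (4.88% against 3.62%). With quantile normalization the share of members called was thus below that of all features in both comparisons. The authors' values gave 11 for adenoma against epithelium (13.8% against 11.7%) and normexp gave 7 for untreated adenoma (8.75% against 7.33%). For treated adenoma each probe as a feature gave 6 (7.5% against 5.53%) and median scaling, chosen after seeing the data, 5 (6.25% against 6.19%). Leaving out arrays or samples in turn gave 4 to 42, 0 to 20 and 1 to 22, with 7, 11 and 7 for adenoma against epithelium without untreated arrays 1 and 2, treated arrays 2 to 4 and tumor-bearing arrays 1 and 3. It gave 0 between treated and untreated adenoma and between epithelia.

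The median of each complex stayed below 0 in all 33 settings of adenoma against epithelium and all 34 of untreated and of treated adenoma. The percentile over well-measured probes moved the median of all features in adenoma against epithelium from -0.17 to 0.06. Ndufa4 ranged from -0.03 to 0.49 and was never called. Signal near background limits Cox8b, Cox6a2, Cox4i2 and Cox8c.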
